A study of Mus musculus with 16 samples.

Results

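The CXC chemokine genes Cxcl1, Cxcl2, Cxcl5, Cxcl9, Cxcl10, Cxcl12, Cxcl14, Cxcl16 and Pf4 were followed in fetal mouse trabecular osteoblasts (TOs). They were chosen by symbol, as every array probe whose platform or current gene symbol is one of these 9 genes, which gave 9 of the 16593 genes and 14 of the 25697 probes on the array. Of these, 12 probes covering all 9 genes were detected on enough arrays to be tested, among 15279 tested probes. Both untested probes were for Cxcl12 and were detected on none of the 16 arrays.

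The study asked how TOs with and without PTHrP (parathyroid hormone-related protein, encoded by Pthlh) respond to simulated microgravity and to added PTHrP. TOs came from C57BL/6 embryos 1 day before birth, either Pthrp+/+ or Pthrp-/-, from matings of heterozygotes. That age was used because the homozygous deletion is lethal around birth. All cultures were grown for 6 days on microcarriers, either static on agarose-coated plastic (1g) or in a rotating vessel (0g), and were either left untreated or given 10 nM of the N-terminal PTHrP peptide for 2 h each day. Each of the 8 conditions was hybridised to 2 arrays. The sample labels give the source as tibia in one field and femur in another. The vessel and its rotation cannot be told apart from 0g, nor the daily handling from the peptide. The methods describe the experiments as run in duplicate, but the labels do not tie the replicates to different animals. The p-values reflect the spread between these arrays, which may be partly technical. RNA was taken from whole cultures, in which fewer cells of a type and less RNA per cell cannot be told apart.

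CXC chemokines are small secreted proteins that guide leukocytes through G protein-coupled receptors. Cxcl1, Cxcl2 and Cxcl5 carry the ELR motif, signal through Cxcr2 and attract neutrophils, and their genes are classical targets of NF-kB. Cxcl9 and Cxcl10 are induced by interferon and attract T cells through Cxcr3. Cxcl12 binds Cxcr4 and holds haematopoietic progenitors in bone marrow, where cells of the stromal and osteoblast lineage are its main source. Pf4 is known from platelet granules, Cxcl16 is made both as a membrane-bound and a shed ligand of Cxcr6, and Cxcl14 is expressed in many epithelia and stromal tissues.

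Levels are normalized log2 signals on which the arrays detected a probe from about 4.79 to 5.06 upwards. Each array detected between 12161 and 13560 probes, and replicate arrays had correlations of 0.989 to 0.997. Of the 13 probes of the osteoblast marker list, 11 to 13 were detected on each Pthrp+/+ array and 9 to 10 on each Pthrp-/- array. Pthlh had 0 named probes on the array, so the deletion itself was not checked. Across all tested probes, the change from 1g to 0g in untreated Pthrp-/- TOs ran opposite to that in Pthrp+/+ TOs (r = -0.34 across probes, which are not independent replicates, with no shared arrays), and the same held for treated TOs (r = -0.25). A list of hypoxia-induced genes was chosen from earlier results of these data as a check of the gravity labels. It fell at 0g on 10 of 10 probes in Pthrp+/+ TOs. Of all tested probes 12.4% were lower at 0g in untreated Pthrp+/+ TOs and 4.16% in treated ones. The list had a median log2 change of -1.82 in untreated Pthrp+/+ TOs, but of 0.04 untreated and 0.03 treated in Pthrp-/- TOs. One of its genes, Egln3, was lower at 0g in untreated Pthrp-/- TOs as in Pthrp+/+ TOs (5.95 to 6.11 at 1g and 5.34 to 5.50 at 0g, with no overlap), but overlapped in treated ones (5.28 to 5.53 and 5.21 to 5.31). The list as a whole gave no check of which Pthrp-/- arrays were at 0g, and every 0g direction given for Pthrp-/- TOs rests on their labels.

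Macrophage markers were far lower in the Pthrp-/- than in the Pthrp+/+ cultures. The summed signal of 22 probes for 16 macrophage genes was 100456 to 103323 in untreated Pthrp+/+ TOs at 1g, 92336 to 94225 in treated ones at 1g, 63231 to 63662 in untreated ones at 0g, and 79191 to 81109 in treated ones at 0g. In the 8 Pthrp-/- arrays it was 677 to 935. The arrays detected 19 to 22 of the 22 probes in Pthrp+/+ TOs and 5 to 7 in Pthrp-/- TOs, where the defining markers Adgre1, C1qa and C1qb were detected on no array. Lyz2, Cd14 and Laptm5 were detected on all 16 arrays, and Lyz2 probe ILMN_1252076 read 6.15 to 7.65 in Pthrp-/- TOs. The sums differed between genotypes without overlap, and in Pthrp+/+ TOs also with gravity and with treatment at each gravity. In untreated Pthrp-/- TOs they were 824 to 835 at 1g and 677 to 747 at 0g, with no overlap. In treated Pthrp-/- TOs they were 815 to 827 at 1g and 862 to 935 at 0g, with no overlap. The part of these sums in the chemokine results below was not tested.

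Cxcl5, Pf4, Cxcl1 and Cxcl2 lie in a single stretch of chromosome 5, in the order Cxcl5, Ppbp, Pf4, Cxcl3, Cxcl15, Cxcl1 and Cxcl2. Cxcl9 and Cxcl10 lie elsewhere on chromosome 5 with Art3 between them, Cxcl12 on chromosome 6, Cxcl16 on chromosome 11 and Cxcl14 on chromosome 13. The 250 bases before the start of Cxcl1, Cxcl2 and Cxcl10 are shown because Cxcl1 and Cxcl2 rose together at 0g in Pthrp+/+ TOs while Cxcl10 fell, and because these were the members with a match on either strand to the kappaB letters, GGG and TTCC with any 3 bases between them. Sequences are from RefSeq on GRCm38.p6, 5′ to 3′ on the gene's strand. Capitals mark the kappaB matches and, in Cxcl10, also a match to the interferon-response letters, GAAA given 2 times with any 2 bases between.
Cxcl1, chr5:90890995-90891244, plus strand: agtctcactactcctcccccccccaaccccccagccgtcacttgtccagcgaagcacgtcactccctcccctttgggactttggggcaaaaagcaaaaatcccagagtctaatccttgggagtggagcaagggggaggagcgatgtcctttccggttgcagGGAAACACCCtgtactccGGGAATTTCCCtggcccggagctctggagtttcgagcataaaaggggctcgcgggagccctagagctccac
Cxcl2, chr5:90903649-90903898, plus strand: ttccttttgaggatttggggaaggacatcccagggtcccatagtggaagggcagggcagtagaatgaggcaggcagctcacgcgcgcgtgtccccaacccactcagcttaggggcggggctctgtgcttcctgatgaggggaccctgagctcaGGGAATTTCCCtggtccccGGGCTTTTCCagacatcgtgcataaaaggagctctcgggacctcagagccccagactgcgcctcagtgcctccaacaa
Cxcl10, chr5:92348890-92349139, minus strand: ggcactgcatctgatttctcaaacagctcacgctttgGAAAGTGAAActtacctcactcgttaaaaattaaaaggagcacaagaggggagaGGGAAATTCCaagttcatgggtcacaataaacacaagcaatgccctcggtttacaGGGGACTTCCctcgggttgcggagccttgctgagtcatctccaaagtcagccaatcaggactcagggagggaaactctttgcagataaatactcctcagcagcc

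The Cxcl1 window held 3 kappaB matches between bases 89 and 61 before the start, and the Cxcl2 window 3 between bases 97 and 69. In each, 2 of the 3 are the same 11 letters read on opposite strands. Cxcl10 held 2, between bases 159 and 95. A kappaB match was found in 1527 of 32851 windows of this length (4.65%). Cxcl10 also held the interferon-response letters, at bases 213 to 204, as did Cxcl14, against 2.98% of all windows. Promoter sequence was found for 7 of the 9 members, and Cxcl9, Cxcl12 and Pf4 held neither motif. These are matches of letters and not measured binding sites.

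The chemokines differed most by genotype. In untreated TOs at 1g all 12 probes were lower in Pthrp-/- than in Pthrp+/+ TOs (20.7% of all tested probes were lower) and 0 were higher (29.9% were higher). The median log2 change of the 12 probes was -1.88, against 0.12 over all tested probes. With treatment at 1g, 9 of 12 were lower (21.0% of all) and 0 higher (28.4%). At 0g without treatment, 9 were lower (13.9% of all) and the 3 Cxcl12 probes were higher (16.6%). At 0g with treatment, 8 were lower (14.3%) and again the 3 Cxcl12 probes were higher (18.1%). The 5 genes Cxcl2, Cxcl5, Cxcl9, Cxcl10 and Pf4 were detected on all 8 Pthrp+/+ arrays and on none of the 8 Pthrp-/- arrays. Their probes were tested only through their Pthrp+/+ signal, so they could hardly be called higher in Pthrp-/- TOs. Levels in the 2 genotypes did not overlap over the 16 arrays on 8 of the 12 probes. The shares of all tested probes with these 2 patterns were not counted, so neither is read as particular to the chemokines. Both gravities of untreated Pthrp-/- TOs were also set against untreated Pthrp+/+ TOs at 1g alone, which does not rest on the Pthrp-/- gravity labels. There 12 of 12 probes were lower, including the 3 Cxcl12 probes that were higher in Pthrp-/- TOs at 0g. The share of all tested probes lower in this comparison was not counted. Its count, the counts above and the median include the 5 genes that were tested only through their Pthrp+/+ signal.

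**Figure D1:**
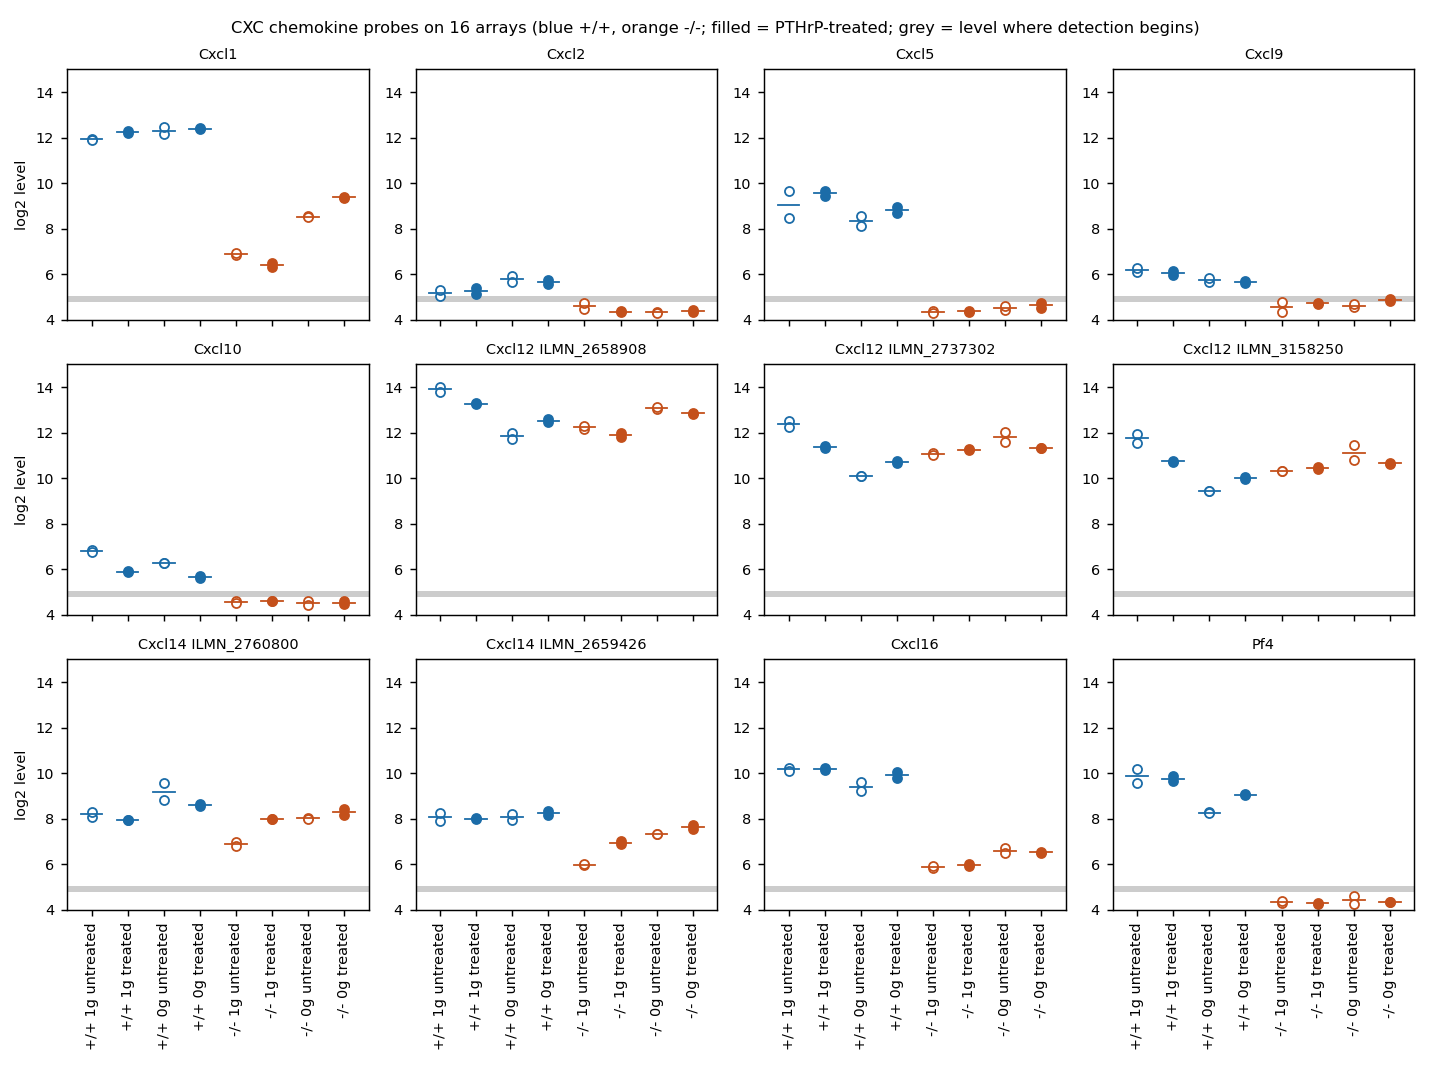
Normalized log2 level of each tested CXC chemokine probe (vertical axis) on each of the 16 arrays, by condition (horizontal axis). Circles are single arrays, filled where treated with PTHrP, lines are means of 2 arrays, blue is Pthrp+/+ and orange Pthrp-/-, and the grey band spans the levels of 4.79 to 5.06 at which detection begins. Cxcl2, Cxcl5, Cxcl9, Cxcl10 and Pf4 lie below the band or within it on every Pthrp-/- array, whereas the Cxcl12 probes lie at 9.43 or higher on every array.

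**Figure D2:**
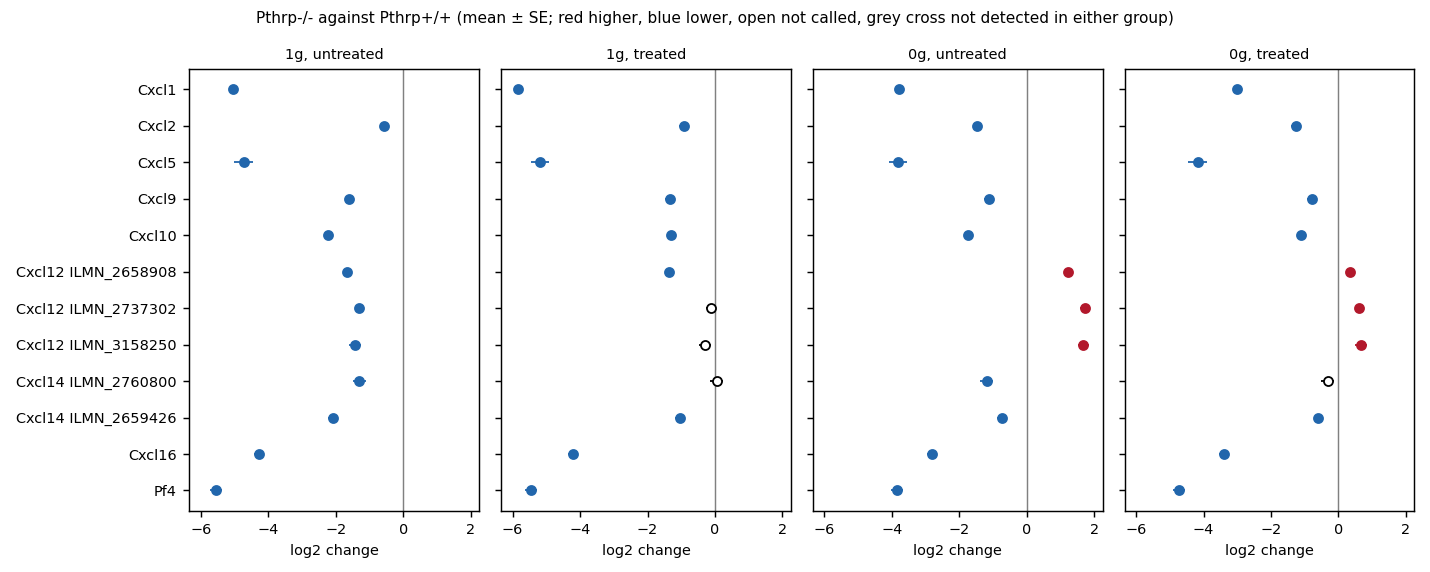
Log2 change of Pthrp-/- against Pthrp+/+ TOs (horizontal axis, mean ± SE, 2 arrays per group) for each probe in the 4 gravity and treatment settings. Blue points were called lower and red points higher. For Cxcl2, Cxcl5, Cxcl9, Cxcl10 and Pf4 the Pthrp-/- side was not detected, so the plotted distance is no measure of size. The 3 Cxcl12 probes lie below 0 at 1g and above 0 at 0g.

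The response to 0g differed between genotypes for part of the members, and for Cxcl12 and Cxcl16 in untreated TOs the called changes were in opposite directions. In untreated Pthrp+/+ TOs, 7 of 12 probes were downregulated at 0g (12.4% of all tested probes were lower) and 3 were upregulated (12.1%), with a median log2 change of -0.63 against 0.04 over all probes. With treatment, 4 were downregulated (4.16%) and 0 upregulated (3.14%). In untreated Pthrp-/- TOs, 7 were upregulated at 0g (4.77%) and 0 downregulated (3.97%), and in treated Pthrp-/- TOs 4 were upregulated (4.52%) and 0 downregulated (3.72%). The other 5 probes were not detected in Pthrp-/- TOs at either gravity.

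**Figure D3:**
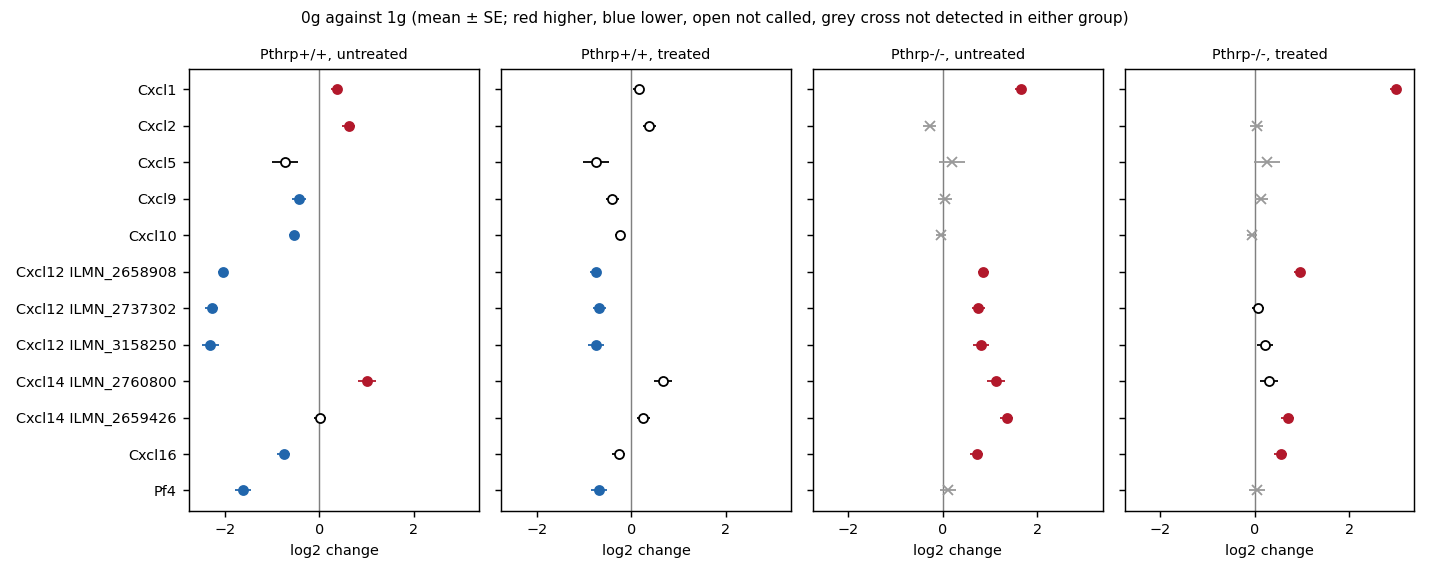
Log2 change at 0g against 1g (horizontal axis, mean ± SE, 2 arrays per group) for each probe in each genotype and treatment. Red points were called higher, blue points lower, open points were not called, and grey crosses were detected in neither group. In untreated Pthrp+/+ TOs the 3 Cxcl12 probes lie between -2.31 and -2.04, and in untreated Pthrp-/- TOs between 0.75 and 0.86.

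Fewer chemokine probes changed with the PTHrP peptide. In Pthrp+/+ TOs at 1g, 4 were downregulated (0.497% of all tested probes) and 0 upregulated (0.177%). At 0g, 4 were upregulated (4.44%) and 1, Cxcl10, was downregulated (2.98%). In Pthrp-/- TOs at 1g, both Cxcl14 probes were upregulated (1.61%) and Cxcl1 was downregulated (1.33%), and at 0g only Cxcl1 among the 12 was upregulated (1.02%) and 0 were downregulated (0.962%).

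**Figure D4:**
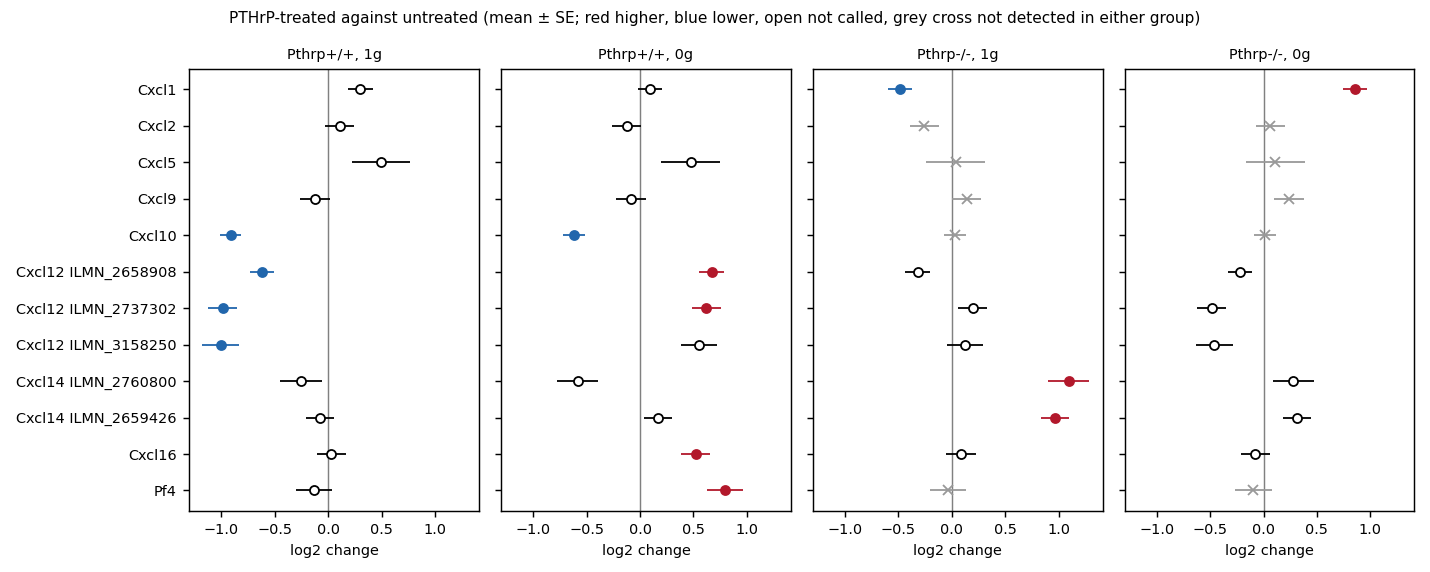
Log2 change of PTHrP-treated against untreated TOs (horizontal axis, mean ± SE, 2 arrays per group) for each probe in each genotype and gravity, with colours as for the change at 0g. Cxcl12 lies below 0 at 1g and above 0 at 0g in Pthrp+/+ TOs, and Cxcl14 near 1 in Pthrp-/- TOs at 1g.

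Cxcl1, a neutrophil attractant, was bright in Pthrp+/+ TOs and was detected on all 16 arrays. Its log2 levels in Pthrp+/+ TOs were 11.96 and 11.90 untreated at 1g, 12.18 and 12.27 treated at 1g, 12.14 and 12.45 untreated at 0g, and 12.37 and 12.41 treated at 0g. The Pthrp-/- levels were 6.84 and 6.92 untreated at 1g, 6.48 and 6.30 treated at 1g, 8.54 and 8.51 untreated at 0g, and 9.35 and 9.41 treated at 0g. The genotypes did not overlap, and the 4 Pthrp-/- conditions were well separated from one another while the 4 Pthrp+/+ conditions lay close together. Untreated Pthrp-/- TOs at 1g had 33.2-fold less Cxcl1 signal than Pthrp+/+ TOs (log2 change -5.05 ± 0.12, SE, n = 2 arrays per group, limma adjusted p = 5.4e-13), and at 0g 13.7-fold less. In Pthrp-/- TOs Cxcl1 was 3.13-fold higher at 0g than at 1g without treatment (log2 change 1.64 ± 0.12, adjusted p = 1.9e-06) and 7.93-fold higher with it (2.99 ± 0.12, adjusted p = 8.6e-09). The corresponding log2 changes in Pthrp+/+ TOs were 0.37 ± 0.12 (adjusted p = 0.033) and 0.16 ± 0.12 (adjusted p = 0.54). The difference between genotypes was itself past the threshold, by 1.28 untreated and 2.83 treated on the log2 scale. The rise of Cxcl1 in untreated Pthrp+/+ TOs lost its call with cyclic loess scaling, where it was 0.21, and without either 1g array or the second 0g array.

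Treatment raised Cxcl1 in Pthrp-/- TOs at 0g 1.81-fold (log2 change 0.86 ± 0.12, limma adjusted p = 0.0024) and lowered it at 1g (-0.48 ± 0.12, adjusted p = 0.040). In the 0g comparison 3 of 22 macrophage probes were higher (1.02% of all tested probes) and 0 lower (0.962%) with treatment. The summed signal of the 22 was 677 to 747 untreated and 862 to 935 treated, with no overlap. These arrays detected 5 to 6 of the 22 probes, so the sums include the background of undetected ones. Lyz2 probe ILMN_1252076 read 6.15 to 6.74 untreated and 7.42 to 7.65 treated, and ILMN_2939681 5.23 to 5.25 and 6.00 to 6.05. Lyz2 probe ILMN_2766780 was not detected in either. The part of the macrophage probes in this result was not tested. The 1g value is close to the threshold and lost its call without any of 12 single arrays, all 4 of its own among them. The difference between the 2 gravities was 1.34 ± 0.16 (adjusted p = 0.0034). In Pthrp+/+ TOs the log2 changes with treatment were 0.30 at 1g and 0.09 at 0g, with 95% intervals of 0.05 to 0.55 and -0.15 to 0.34, and neither was called.

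Cxcl2, which shares its receptor with Cxcl1, was dim. Its levels in Pthrp+/+ TOs were 5.02 and 5.31 untreated at 1g, 5.40 and 5.15 treated at 1g, 5.90 and 5.67 untreated at 0g, and 5.75 and 5.57 treated at 0g, and in Pthrp-/- TOs it was not detected, at 4.30 to 4.71. The untreated 0g arrays lay above the untreated 1g arrays. The rise of Cxcl2 at 0g was 0.62 ± 0.14 on the log2 scale (limma adjusted p = 0.0044), and its call was lost with the authors' normalized values (adjusted p = 0.073) and without the first untreated 1g array. Against the undetected Pthrp-/- arrays its level in untreated TOs was at least 1.14-fold higher in Pthrp+/+ at 1g and at least 1.75-fold higher at 0g.

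Cxcl5, the other neutrophil attractant, was brighter, with log2 levels in Pthrp+/+ TOs of 8.47 and 9.65 untreated at 1g, 9.44 and 9.67 treated at 1g, 8.12 and 8.56 untreated at 0g, and 8.67 and 8.96 treated at 0g. The 2 untreated arrays at 1g differed from each other by more than the arrays of any other condition, and 1 of them overlapped the 0g arrays. On Pthrp-/- arrays Cxcl5 was not detected, at 4.29 to 4.74. In untreated TOs the Pthrp+/+ level of Cxcl5 was at least 16.98-fold above that of Pthrp-/- at 1g (limma adjusted p = 6.7e-09), and at least 10.3-fold above it at 0g. Its log2 change at 0g in Pthrp+/+ TOs was -0.72 ± 0.28 untreated (adjusted p = 0.076) and -0.74 ± 0.28 treated (adjusted p = 0.15), neither of them called.

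A list of NF-kB and inflammatory response genes held 17 tested genes on 18 probes, with no call on most of them at 0g. It includes subunits of NF-kB itself, such as Rela, and is not a list of targets only. In untreated Pthrp+/+ TOs, 3 probes rose at 0g (12.1% of all tested probes), for the monocyte attractants Ccl2 (log2 change 1.16) and Ccl7 (0.66) and the cytokine Lif (0.60). Another 4 fell (12.4% of all), for Il1b, Lcn2, Saa3 and Tnf, with a list median of -0.01. Ccl2 and Ccl7 had log2 changes of -1.49 and -1.33 at 0g in untreated Pthrp-/- TOs, both called, the opposite of Cxcl1 on the same arrays. With the deletion at 1g, 12 of the 18 probes were lower (20.7% of all) and 2 higher (29.9%) in untreated TOs, with a median of -0.81.

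Cxcl9 was dim. Its levels in Pthrp+/+ TOs were 6.07 and 6.27 untreated at 1g, 6.13 and 5.97 treated at 1g, 5.64 and 5.85 untreated at 0g, and 5.68 and 5.63 treated at 0g, and it was not detected in Pthrp-/- TOs, at 4.36 to 4.90. The untreated 0g arrays lay below the untreated 1g arrays. Its log2 change at 0g was -0.43 ± 0.14 untreated (limma adjusted p = 0.038), a call lost in 14 of 25 alternatives, and -0.40 ± 0.14 treated (adjusted p = 0.12). Compared to Pthrp-/- TOs the level was at least 2.29-fold higher in untreated Pthrp+/+ TOs at 1g and at least 1.69-fold higher at 0g.

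Cxcl10, the other Cxcr3 ligand, was lower both at 0g and with the peptide in Pthrp+/+ TOs. Its levels there were 6.86 and 6.75 untreated at 1g, 5.88 and 5.90 treated at 1g, 6.26 and 6.28 untreated at 0g, and 5.69 and 5.63 treated at 0g, so that the 4 conditions did not overlap. On the Pthrp-/- arrays it was not detected, at 4.43 to 4.62. The peptide lowered it 1.89-fold at 1g (log2 change -0.92 ± 0.10, limma adjusted p = 0.00088) and by 0.62 ± 0.10 on the log2 scale at 0g (adjusted p = 0.0029). At 0g without treatment it fell by 0.53 ± 0.10 (adjusted p = 0.0017), and with treatment the log2 change was -0.23 ± 0.10 (adjusted p = 0.23). The deletion lowered its level in untreated TOs at least 3.56-fold at 1g and 2.45-fold at 0g.

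Other interferon-induced genes were compared as a list. Of 22 tested probes for 11 such genes, 16 fell at 0g in untreated Pthrp+/+ TOs (12.4% of all tested probes, list median log2 change -0.91). With the peptide at 1g in Pthrp+/+ TOs 10 fell (0.497% of all, list median -0.74). With the deletion in untreated TOs at 1g 22 were lower (20.7% of all, list median -2.14). At 0g only 1 of the 22 fell with the peptide (2.98% of all), where Cxcl10 also fell. In Pthrp-/- TOs 10 of the 22 rose at 0g with treatment (4.52% of all), while Cxcl10 was not detected. The gene whose level followed Cxcl10 most closely over all tested genes was Rsad2, an interferon-induced antiviral enzyme that is also on this list, with a Pearson r of 0.987 over 16 arrays and 0.970 within the 8 Pthrp+/+ arrays.

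Pf4 was one of the members most reduced by the deletion. Its levels in Pthrp+/+ TOs were 9.57 and 10.19 untreated at 1g, 9.64 and 9.86 treated at 1g, 8.28 and 8.25 untreated at 0g, and 9.04 and 9.07 treated at 0g, whereas it was not detected in Pthrp-/- TOs, at 4.25 to 4.60. The untreated 0g arrays were the lowest of the Pthrp+/+ arrays and the treated 0g arrays came next, with no overlap. The deletion lowered Pf4 in untreated TOs at least 29.9-fold at 1g (limma adjusted p = 7.9e-12) and 9.75-fold at 0g. In untreated Pthrp+/+ TOs it fell 3.06-fold at 0g (log2 change -1.61 ± 0.17, adjusted p = 1.2e-05), and with treatment by 0.69 ± 0.17 on the log2 scale (adjusted p = 0.025), a call lost with cyclic loess scaling and without any 1 of its 4 arrays. The peptide raised it at 0g by 0.79 ± 0.17 (adjusted p = 0.013), a call lost with cyclic loess scaling and without the first untreated array or either treated array.

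Ppbp, another platelet chemokine and the neighbour of Pf4 on chromosome 5, moved the other way at 0g. Its 2 probes had log2 changes of 2.60 and 2.30 in untreated Pthrp+/+ TOs and 1.70 and 1.61 in treated ones, all called higher, and were not detected in untreated Pthrp-/- TOs. Of the 8 tested probes for platelet and megakaryocyte genes these 2 were the ones called at 0g in untreated Pthrp+/+ TOs. Of all tested probes 12.1% were higher there and 12.4% lower. The 3 genes whose levels were most like Pf4 over the 16 arrays were Lilr4b (r = 0.999), Snx20 (r = 0.998) and Gmfg (r = 0.998), values that largely follow the gap between genotypes. Of the 22 macrophage probes, 20 fell at 0g in untreated Pthrp+/+ TOs (12.4% of all, list median log2 change -1.06). With the peptide at 0g 12 rose (4.44% of all, list median 0.55), and Pf4 moved the same way in both comparisons.

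Cxcl12 was bright on its 3 tested probes in every condition, and in untreated TOs its order between genotypes turned with gravity. Probe ILMN_2658908 read 13.99 and 13.81 in untreated Pthrp+/+ TOs at 1g, 13.30 and 13.25 treated at 1g, 11.97 and 11.74 untreated at 0g, and 12.59 and 12.46 treated at 0g. On Pthrp-/- arrays it read 12.17 and 12.28 untreated at 1g, 12.00 and 11.81 treated at 1g, 13.04 and 13.12 untreated at 0g, and 12.88 and 12.84 treated at 0g. In Pthrp+/+ TOs both 0g conditions thus lay below both 1g conditions, and in Pthrp-/- TOs both lay above them. The 3 tested probes are annotated to 3 RefSeq transcripts of the gene, and both undetected probes to transcripts that a detected probe also represents.

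In untreated Pthrp+/+ TOs Cxcl12 fell at 0g on all 3 tested probes, by 4.12-, 4.87- and 4.95-fold (ILMN_2658908, ILMN_2737302 and ILMN_3158250; log2 changes -2.04 ± 0.12, -2.28 ± 0.14 and -2.31 ± 0.17, limma adjusted p = 4.1e-08, 6.5e-08 and 5.1e-07). With treatment the fall was smaller, at -0.75, -0.68 and -0.75, still called on all 3. That count rests on each array compared, since of the 4 chemokine probes that fell at 0g with treatment (Cxcl12 and Pf4), 1 was called without the first array of either group and 2 without the second array of either group. In untreated Pthrp-/- TOs Cxcl12 rose at 0g by 0.86, 0.75 and 0.80, calls that were lost when only these 2 groups were fitted. On ILMN_3158250, whose 0g arrays read 11.44 and 10.80, the call was also lost without the first 0g array or either 1g array, and the change ran from 0.48 to 1.13 over the alternatives. In treated Pthrp-/- TOs the changes were 0.95, 0.07 and 0.22, of which the first was called (adjusted p = 0.00013). The difference of the 0g response between genotypes was 2.90 to 3.11 on the log2 scale in untreated TOs, called on all 3 probes and in every alternative run. At 1g, untreated Pthrp-/- TOs had less Cxcl12 than Pthrp+/+ TOs, with log2 changes of -1.67, -1.31 and -1.43, and at 0g they had 2.34-, 3.30- and 3.20-fold more. With treatment at 0g the log2 difference was 0.34, 0.62 and 0.67, and the first call was lost in 9 of 25 alternatives. With treatment at 1g the mean levels in Pthrp-/- and Pthrp+/+ TOs were 11.91 and 13.28, 11.25 and 11.38, and 10.44 and 10.74. The gap was thus small on the last 2 probes. If the gravity labels of the Pthrp-/- arrays were exchanged the 0g direction in Pthrp-/- TOs would turn. Both gravities of untreated Pthrp-/- TOs against untreated Pthrp+/+ TOs at 1g alone gave -1.24, -0.93 and -1.03, called lower on all 3. Untreated Pthrp+/+ TOs at 1g had the highest Cxcl12 level of all conditions on each probe. Pthrp+/+ TOs at 0g were not part of that comparison, so it does not give the genotype difference over both gravities.

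The peptide moved Cxcl12 in opposite directions at the 2 gravities in Pthrp+/+ TOs. At 1g its 3 probes fell by 0.62, 0.99 and 1.01 on the log2 scale (limma adjusted p = 0.026, 0.0032 and 0.016). At 0g they changed by 0.67, 0.62 and 0.55, of which the first 2 were called (adjusted p = 0.0037 and 0.014) and the last was not (0.070). The difference between gravities was 1.29, 1.61 and 1.56, called on all 3 probes in every alternative run. The calls at a single gravity were less firm. Of the 4 chemokine probes that fell with the peptide at 1g (Cxcl10 and Cxcl12), 1 was still called without the first untreated array or without the second treated array, and 2 without the first treated array. Of the 5 called at 0g, 1 was called without the first treated array, and 2 without the second treated or the first untreated array. In Pthrp-/- TOs no probe of Cxcl12 was called with treatment, the log2 changes running from -0.32 to 0.20 at 1g and from -0.48 to -0.22 at 0g.

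The gene most like Cxcl12 was Abi3bp, an extracellular matrix protein, with r = 0.983 over 16 arrays, 0.988 within the 8 Pthrp+/+ arrays and 0.982 within the 8 Pthrp-/- arrays. It was followed by Rtl3 (r = 0.965) and the basement membrane protein Nid2 (r = 0.952). For most other members the genes most alike over 16 arrays were less alike within a genotype, as with Tubb2b for Cxcl1 (r = 0.986 over 16 arrays and 0.072 within Pthrp+/+ arrays). These arrays share cultures and conditions, so the values describe likeness of pattern only.

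Cxcr4, the signalling receptor of Cxcl12, was detected on both arrays of each Pthrp+/+ condition and on no Pthrp-/- array, and was at least 1.21-fold higher in untreated Pthrp+/+ TOs at 1g. It was not called at 0g or with treatment. Ackr3, the scavenging receptor of Cxcl12, was called in none of the 12 comparisons. Of the enzymes that cut chemokines, the gelatinase Mmp9 had a log2 change of -2.07 ± 0.26 at 0g in untreated Pthrp+/+ TOs (limma adjusted p = 5.7e-05), while the log2 changes of Mmp2 were not called there. Of the 8 receptor genes named on the array 5 were tested. With the deletion in untreated TOs at 1g, 3 of these were lower (20.7% of all tested probes) and 1 higher (29.9%). Cxcr2, the receptor of Cxcl1, Cxcl2 and Cxcl5, was not tested.

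Cxcl14 was measured by 2 probes to the same transcript that did not behave alike. ILMN_2760800 read 8.06 and 8.31 in untreated Pthrp+/+ TOs at 1g, 7.93 and 7.93 treated at 1g, 9.58 and 8.80 untreated at 0g, and 8.55 and 8.66 treated at 0g, and ILMN_2659426 read 7.88 and 8.25, 8.02 and 7.96, 7.95 and 8.21, and 8.17 and 8.32 in the same order. In Pthrp-/- TOs ILMN_2760800 read 6.99 and 6.79 untreated at 1g, 7.98 and 7.98 treated at 1g, 8.04 and 7.98 untreated at 0g, and 8.41 and 8.16 treated at 0g, and ILMN_2659426 read 5.95 and 6.01, 7.00 and 6.89, 7.32 and 7.34, and 7.72 and 7.56. On both probes the untreated Pthrp-/- arrays at 1g were the lowest of all, and the probes parted in untreated Pthrp+/+ TOs, where the first was high at 0g and the second was not.

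At 0g in untreated Pthrp+/+ TOs ILMN_2760800 rose by 1.00 ± 0.19 on the log2 scale (limma adjusted p = 0.0018) and ILMN_2659426 changed by 0.01 ± 0.13 (adjusted p = 0.96). In untreated Pthrp-/- TOs both rose, by 1.12 ± 0.19 (adjusted p = 0.0029) and 1.35 ± 0.13 (adjusted p = 3.5e-05). Both also rose with the peptide in Pthrp-/- TOs at 1g, by 1.10 ± 0.19 (adjusted p = 0.0094) and 0.96 ± 0.13 (adjusted p = 0.0020), calls lost with the authors' normalized values and when only the groups compared were fitted. In Pthrp+/+ TOs at 1g the changes of Cxcl14 with the peptide were -0.26 and -0.07, and the difference between genotypes was 1.35 and 1.04, called on both probes.

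Cxcl16 was bright in Pthrp+/+ TOs and low in Pthrp-/- TOs, though detected on all 16 arrays. Its levels were 10.25 and 10.08 untreated at 1g, 10.15 and 10.23 treated at 1g, 9.22 and 9.59 untreated at 0g, and 9.80 and 10.05 treated at 0g in Pthrp+/+ TOs. The Pthrp-/- levels were 5.85 and 5.92 untreated at 1g, 5.94 and 6.00 treated at 1g, 6.71 and 6.48 untreated at 0g, and 6.53 and 6.50 treated at 0g. Within Pthrp+/+ TOs the untreated 0g arrays were the lowest, and within Pthrp-/- TOs both 0g conditions lay above both 1g conditions. Untreated Pthrp-/- TOs at 1g had 19.4-fold less Cxcl16 (log2 change -4.28 ± 0.14, limma adjusted p = 1.3e-11). At 0g Cxcl16 had a log2 change of -0.76 ± 0.14 in untreated Pthrp+/+ TOs (adjusted p = 0.0011) and of 0.71 ± 0.14 in untreated Pthrp-/- TOs (adjusted p = 0.0060), a difference of 1.47 ± 0.19 (adjusted p = 0.00010). The peptide raised it at 0g in Pthrp+/+ TOs by 0.52 ± 0.14 (adjusted p = 0.037), a call lost in 13 of 25 alternatives. In Pthrp+/+ TOs 20 of 22 macrophage probes also fell at 0g untreated (12.4% of all tested probes). With the peptide 12 of them rose at 0g (4.44%) and 1 fell at 1g (0.497%). In Pthrp-/- TOs at 0g 2 fell untreated (3.97%) and 0 were called treated (4.52% of all were higher and 3.72% lower). The part of macrophage signal in the Cxcl12 and Cxcl16 results was not tested.

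Cxcr6, the receptor of Cxcl16, changed in the opposite direction to its ligand in 3 of the 4 deletion comparisons. The same held at 0g in Pthrp-/- TOs and in untreated Pthrp+/+ TOs. It was higher in Pthrp-/- than in Pthrp+/+ TOs by at least 4.41-fold untreated at 1g, 11.97-fold treated at 1g and 2.95-fold treated at 0g, while in untreated TOs at 0g the log2 change was 0.39 and not called (limma adjusted p = 0.23). It fell at 0g in Pthrp-/- TOs by 1.34 ± 0.23 on the log2 scale untreated (limma adjusted p = 0.0031) and by 1.96 ± 0.23 treated (adjusted p = 0.00012). In untreated Pthrp+/+ TOs Cxcr6 was not detected at 1g and was at least 1.33-fold higher at 0g (limma adjusted p = 0.015). The peptide raised Cxcr6 in Pthrp-/- TOs at 1g by 1.41 ± 0.23 (limma adjusted p = 0.0070). Adam17, which sheds chemokine ligands such as Cxcl16, was lower in Pthrp-/- TOs in all 4 settings, by 0.64 on the log2 scale in untreated TOs at 1g, and fell by 0.42 at 0g in untreated Pthrp+/+ TOs. The processing enzymes Adam10 and Dpp4 were not tested. Among other CXC ligands named on the array, Cxcl3, Cxcl11, Cxcl13 and Cxcl17 were not detected on enough arrays to be tested.

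**Figure D5:**
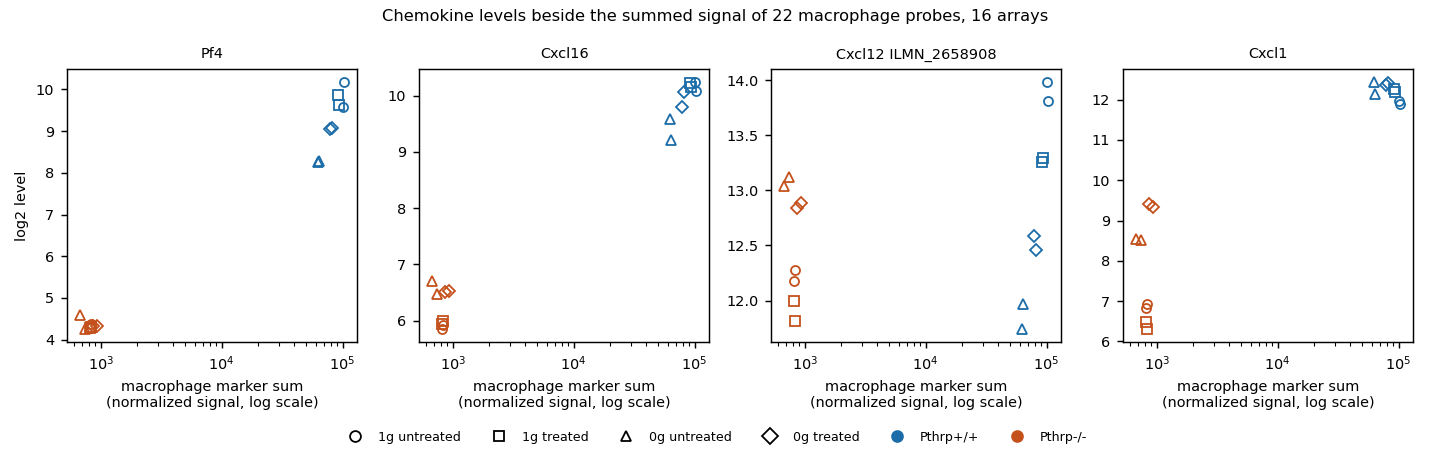
Log2 level of Pf4, Cxcl16, Cxcl12 (ILMN_2658908) and Cxcl1 (vertical axes) against the summed normalized signal of 22 macrophage probes (horizontal axis, log scale), each symbol being 1 of the 16 arrays. The 2 genotypes form separate clouds, at 63231 to 103323 and at 677 to 935. Within Pthrp+/+ arrays Pf4 is lowest where the sum is lowest. Within Pthrp-/- arrays Cxcl1 ranges from 6.30 to 9.41 and the sum from 677 to 935.

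The dependence of each effect on the other factor was tested directly. The 0g response differed between genotypes on 9 of 12 probes in untreated TOs (24.2% of all tested probes) and on 5 of 12 in treated TOs (11.2%). The 9 include Cxcl2, Cxcl10 and Pf4, undetected in Pthrp-/- TOs, whose Pthrp+/+ change was set against an undetected level. The peptide response differed between gravities on the 3 Cxcl12 probes in Pthrp+/+ TOs (2.75% of all) and on Cxcl1 in Pthrp-/- TOs (0.563%). Between genotypes the peptide response differed on 6 of 12 probes at 1g (1.07%), for Cxcl1, Cxcl10, Cxcl12 and Cxcl14, and on 4 of 12 at 0g (1.92%), for Cxcl1, Cxcl10 and Cxcl12. In both, Cxcl10 was undetected in Pthrp-/- TOs. Leaving out single arrays gave 1 to 6 probes at 1g and 0 to 6 at 0g.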

How the data were processed

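Total RNA of 16 trabecular osteoblast cultures was measured on Illumina bead arrays of the Mouse Ref-8 v2.0 type. The authors deposited non-normalized probe intensity values with a detection p-value for each probe, and log2 values that they had normalized with lumi, which served here as an alternative. The study's own test was not used. Intensities were corrected by the normal-exponential method with detection p-values and an offset of 16, quantile normalized and converted to log2 in R 4.3.3 with limma 3.58.1. Probes with a detection p below 0.05 on 2 or more arrays were tested. A limma model of the 8 condition means with moderated variances (residual df 8) gave 12 comparisons and 6 interactions, 3 of them added after the data were seen. P-values were adjusted by Benjamini-Hochberg over all 15279 tested probes, with a call at 0.05, and the probe was the unit counted. Where a probe was detected on neither array of a group, a fold is given as a lower bound against the detection limit. Microarrays give no read depth, and 2 arrays per condition limit the precision. The fit was tested on simulated data. Of the probes, 23978 had 1 symbol and 1719 had none. Every member was named, and other genes came from fixed lists or were the 3 tested genes with the highest Pearson r to a member. The members, lists and tests were chosen with earlier results of these data known, some lists having been drawn up after values were seen, so no count of a list is independent evidence. Promoter windows were searched on both strands. Alternatives were no background correction, cyclic loess, the authors' values, other filters, fits of only the groups compared, trended variances, array weights, replicate blocks and leaving out each array.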

Additional observations from a re-analysis of the deposited data

Results flagged for a closer look

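These are values of 28 interactions in which the effect of 1 factor on a chemokine differed with another factor, by limma's test of the difference itself over all tested probes. Each value is a difference of log2 changes, given as Pthrp-/- minus Pthrp+/+ or as 0g minus 1g.

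The response to 0g differed between genotypes in untreated TOs for Cxcl1 (1.28 ± 0.16 SE), Cxcl2 (-0.90 ± 0.19), Cxcl10 (0.49 ± 0.14), Cxcl12 (2.90 ± 0.16 for ILMN_2658908, 3.03 ± 0.19 for ILMN_2737302 and 3.11 ± 0.24 for ILMN_3158250), Cxcl14 (1.34 ± 0.19 for ILMN_2659426), Cxcl16 (1.47 ± 0.19) and Pf4 (1.71 ± 0.24). Cxcl2, Cxcl10 and Pf4 were not detected on the Pthrp-/- arrays, so for them the difference is the Pthrp+/+ change against an undetected level. For Cxcl12 and Cxcl16 the genotypes moved in opposite directions, with both changes called. In treated TOs the response differed for Cxcl1 (2.83 ± 0.16), Cxcl12 (1.70 ± 0.16, 0.75 ± 0.19 and 0.97 ± 0.24 in the same order of probes) and Cxcl16 (0.81 ± 0.19). All of these take the 0g and 1g labels of Pthrp-/- arrays as given.

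The response to the peptide differed between gravities in Pthrp+/+ TOs for Cxcl12 (1.29 ± 0.16, 1.61 ± 0.19 and 1.56 ± 0.24) and in Pthrp-/- TOs for Cxcl1 (1.34 ± 0.16). Between genotypes it differed at 0g for Cxcl1 (0.76 ± 0.16), Cxcl10 (0.63 ± 0.14, undetected in Pthrp-/- TOs) and Cxcl12 (-0.89 ± 0.16 for ILMN_2658908 and -1.10 ± 0.19 for ILMN_2737302). At 1g it differed for Cxcl1 (-0.79 ± 0.16), Cxcl10 (0.94 ± 0.14, undetected in Pthrp-/- TOs), Cxcl12 (1.18 ± 0.19 for ILMN_2737302 and 1.13 ± 0.24 for ILMN_3158250) and Cxcl14 (1.35 ± 0.27 for ILMN_2760800 and 1.04 ± 0.19 for ILMN_2659426). Of the 28 interactions, 14 kept their call in every alternative run. The peptide differences between genotypes at 0g lost theirs in 10 of 25 alternatives for Cxcl1 and in 20 for Cxcl10. For Cxcl12 they were lost in 6 (ILMN_2658908) and 3 (ILMN_2737302). Comparisons that share arrays are not independent of each other.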

How the results depend on the processing

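No called change of a chemokine probe reversed under any alternative run, and 54 of the 82 calls in the 12 comparisons were kept in every one. The counts of called probes moved by over 1.5 times in these cases, whose cause was not tested. For treatment in Pthrp-/- TOs at 0g (main count 1) it was 2 with no background correction, 2 with trended and robust variances and 0 with only the groups compared. For treatment by genotype at 0g (4) it was 2 with cyclic loess, 1 with array weights and 0 with only the groups compared. For treatment in Pthrp-/- TOs at 1g (3) it was 0 with the authors' values and 0 with only the groups compared. For treatment by genotype at 1g (6) it was 3 with the authors' values. For 0g in treated Pthrp+/+ TOs (4) it was 7 with only the groups compared and 9 with array weights. With only the groups compared, which leaves fewer arrays for the variance, it was also 3 for 0g in untreated Pthrp-/- TOs (7), 1 for treatment in Pthrp+/+ TOs at 0g (5), 8 for genotype by gravity in treated TOs (5) and 0 for treatment by gravity in Pthrp-/- TOs (1).

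Leaving out each array in turn gave 8 to 10 called probes for 0g in untreated Pthrp+/+ TOs, 1 to 5 in treated Pthrp+/+ TOs, 5 to 7 in untreated Pthrp-/- TOs and 2 to 4 in treated Pthrp-/- TOs, the 2 arising without the first treated 0g or the second treated 1g array. For the deletion it gave 11 to 12 untreated at 1g, 9 to 10 treated at 1g, 12 to 12 untreated at 0g and 9 to 11 treated at 0g. For treatment it gave 1 to 6 in Pthrp+/+ TOs at 0g, 1 to 4 in Pthrp+/+ TOs at 1g, 1 to 3 in Pthrp-/- TOs at 1g (1 without the first or second treated or the second untreated array) and 1 to 3 in Pthrp-/- TOs at 0g (3 without the second untreated array). For genotype by gravity it gave 8 to 10 untreated and 2 to 7 treated, for treatment by gravity 3 to 4 in Pthrp+/+ and 1 to 3 in Pthrp-/- TOs (3 without the second untreated 0g array), and for treatment by genotype 0 to 6 at 0g and 1 to 6 at 1g. The treated genotype by gravity count (5) was 2 or 3 without any single one of the 8 treated arrays, and the treatment by genotype count at 1g (6) was 1 to 3 without any single one of its 8 arrays and 3 without either treated Pthrp+/+ array at 0g. At 0g it (4) was 0 without the second treated array of either genotype, 1 without the first, and 2 without either treated Pthrp+/+ array at 1g.

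Same-numbered arrays of 2 compared groups had deviations correlated at -0.30 to 0.22, so the numbers were not taken as pairs. With the replicate block 11 in place of 10 probes were called at 0g in untreated Pthrp+/+ TOs (Cxcl5 added, adjusted p = 0.039), and the other counts were the same. The crossed replicate block for the untreated deletion comparison at 0g, chosen after seeing the data, gave 12 probes as before.

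Cyclic loess moved the median over all probes for the untreated deletion comparison at 1g from 0.12 to -0.01 and its split from 4572 higher and 3168 lower to 3208 and 4016, while the chemokine median went from -1.88 to -2.10. The splits moved likewise for the deletion in treated TOs at 1g (4345 and 3204 to 3210 and 3963), untreated at 0g (2533 and 2130 to 1975 and 2431) and treated at 0g (2764 and 2186 to 1885 and 2652), and for 0g in untreated Pthrp+/+ TOs (1854 and 1891 to 1389 and 2264) and genotype by gravity in untreated TOs (1816 and 1885 to 2271 and 1420). Probes near the detection limit, such as Cxcl2 and Cxcl9, have compressed changes without background correction.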
